A study of Rattus norvegicus with 6 samples.

Results

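The genes described here encode the nuclear pore, the receptors that carry cargo through it, the Ran system that gives transport its direction, and the nuclear lamins. Members were taken by gene symbol: Nup followed by a number, the numbered Ipo genes, the Xpo genes, Kpna, Kpnb1, Tnpo, the lamins Lmna, Lmnb1 and Lmnb2, and Ran, Rangap1, Ranbp1 and Ranbp2. This rule found 52 of the 20675 genes in the table. The theme was chosen with the GSK101-against-control values of these same libraries known. Those values are therefore a description of the members, and counts of members that passed or failed a test support nothing about the set.

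The libraries came from primary disc cells of the rat temporomandibular joint, the jaw joint, whose disc is a fibrous pad between the bones. In 1 group of 3 samples the cells received GSK101, an agonist of the calcium-permeable channel TRPV4, for 24 h. The other group of 3 received the solvent DMSO for 24 h and is called control. The labels name no strain, age, genotype or dose and leave the source of the replicates (separate animals, separate cultures or neither) unstated. The p-values set each difference against the spread within the groups of these samples, and that spread may be technical.

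Nuclear pores are channels through the nuclear envelope, built from ring-shaped scaffolds of nucleoporins around a mesh of flexible proteins rich in phenylalanine and glycine. Importins bind cargo in the cytoplasm and release it in the nucleus, where Ran is bound to GTP; exportins bind cargo together with Ran-GTP and release it when GTP is hydrolysed on the cytoplasmic side. Lamins form the meshwork under the inner nuclear membrane that gives the nucleus its stiffness. A-type lamin is known to be abundant in stiff connective tissues, and Lmnb1 is known to be lost from senescent fibroblasts.

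Most of these genes had more transcript in the GSK101 libraries. Levels are RPKM, that is reads per kilobase of the gene, divided by the counted reads of the library and scaled up by a constant, and 48 of the 52 members reached 0.5 RPKM in at least 3 of the 6 libraries and were tested. Of these 48, 38 were higher and 0 lower at an adjusted p under 0.05 in limma, fitted and adjusted over all 12801 tested genes. Of all tested genes, 20.1% were called higher and 11.9% lower, and the counts by role below stand beside these shares. At an unadjusted limma p under 0.05, 0 members were lower, beside 2132 of the 12801 tested genes. In limma-voom on recovered reads 0 members were lower, beside 12.8% of all tested genes. In 38 tested members all 3 GSK101 values lay above all 3 control values, as they did in 28.5% of all tested genes, and in 0 tested members all lay below. The median log2 fold change was 0.32 over the members, with a range of -0.07 to 0.74, and 0.03 over all tested genes. Fold changes are differences on the log2(RPKM + 0.5) scale, which understates the change of low genes, so ratios of mean RPKM are given too. A ratio of at least 1.5 was seen in 7.34% of all tested genes and in 9 of the 48 tested members: Nup160, Lmnb1, Xpo1, Ranbp2, Kpna2, Lmnb2, Nup155, Kpna5 and Nup153.

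**Figure D1:**
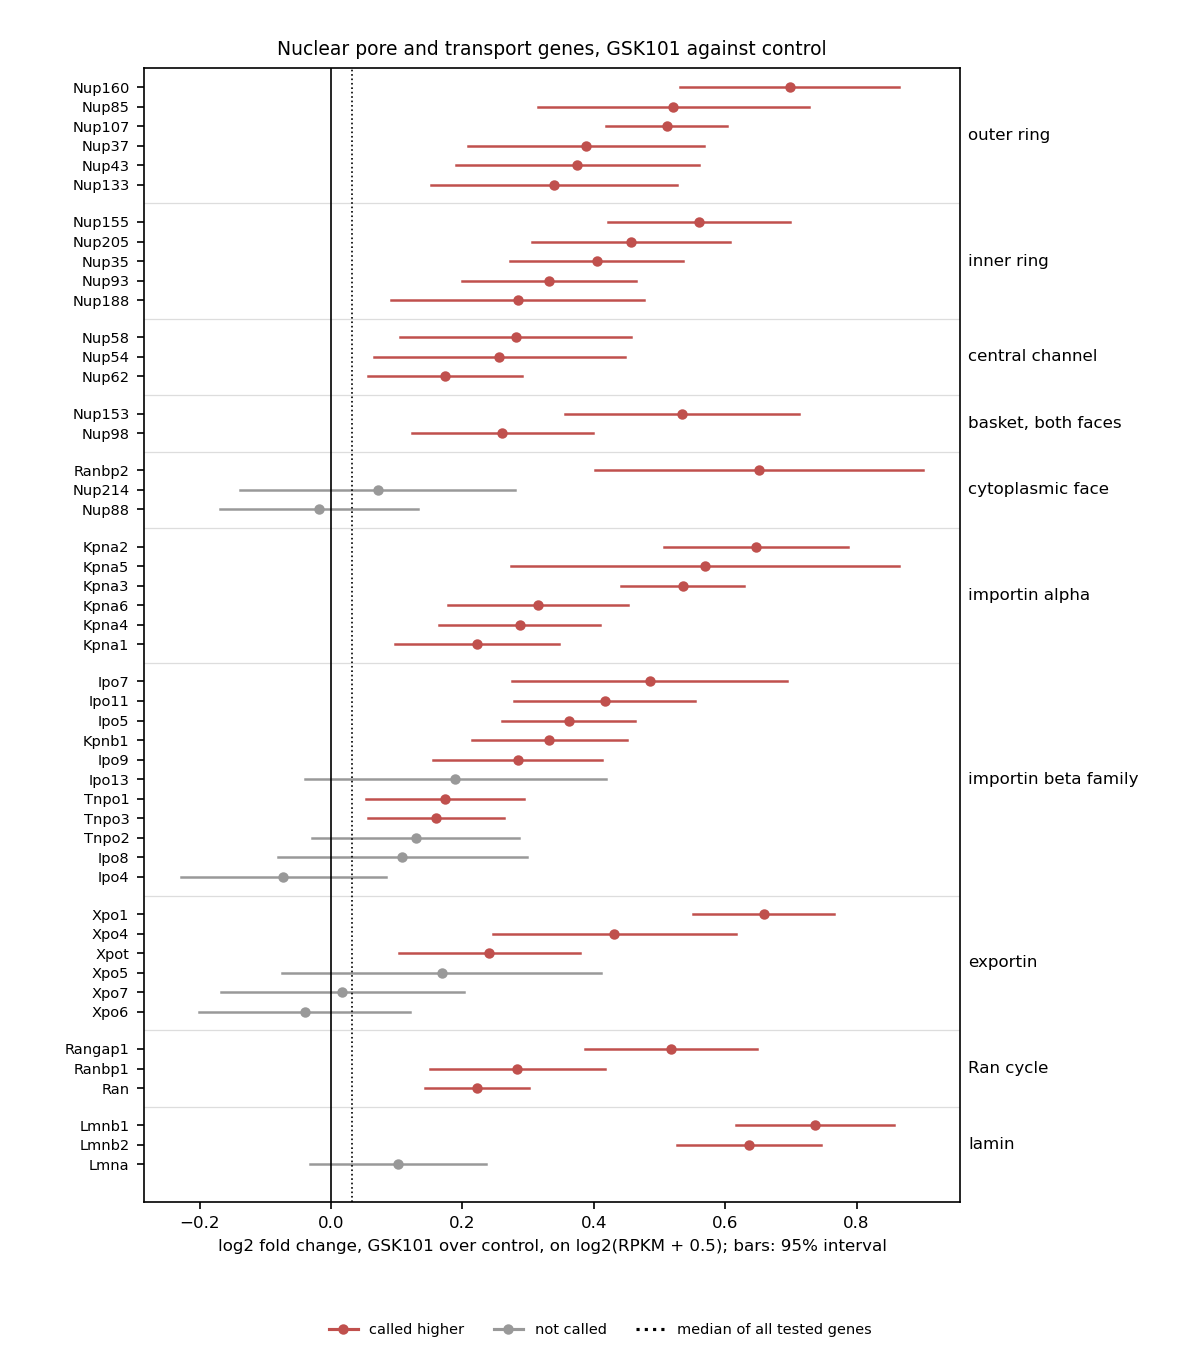
Log2 fold change of each tested member, GSK101 over control on the log2(RPKM + 0.5) scale, with 95% intervals from limma (n = 3 per group). Red points passed an adjusted p of 0.05 and grey points did not; the dotted line is the median of all tested genes, 0.03. All outer ring, inner ring, central channel, importin alpha and Ran cycle points lie to its right, while Nup88, Ipo4, Xpo6 and Xpo7 lie to its left.

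Each library was built from 43061102 to 45705238 counted reads, and the tested member with the fewest reads, Nup43, had at least 240 in each library. Fibroblast markers were present (8 of 8 found were tested), summed at 12186 to 13375 RPKM in controls and 11112 to 12561 with GSK101. Of these, 4 were called higher (Fn1, Dcn, Lum and Pdgfra) and 1 lower (Thy1). Of 6 cartilage genes found, summed at 33.2 to 41.0 RPKM in controls and 33.8 to 36.3 with GSK101, Acan (33.6 and 31.9) and Sox9 (2.80 and 2.46) were tested and not called, while Col2a1, Comp, Col9a1 and Hapln1 did not pass the filter on low values. Genes of dividing cells moved with the members: 14 of 14 found were higher, with a median log2 fold change of 0.73 (range 0.46 to 1.19), and their summed level was 323 to 342 RPKM in controls and 568 to 585 with GSK101. Smooth muscle markers moved the other way, with 6 of 7 tested lower and a sum of 9630 to 9935 RPKM against 5528 to 6053. Over all tested genes, 20.1% were called higher and 11.9% lower. The summed levels of other lists were 7.38 to 10.6 against 8.07 to 11.4 RPKM for leukocytes, 0.667 to 0.854 against 1.10 to 1.26 for endothelium, 18.7 to 20.4 against 13.4 to 15.5 for skeletal muscle, 154 to 169 against 131 to 147 for tendon and 14.1 to 14.8 against 12.0 to 14.0 for nerve; no listed gene was at 0 in every library. Of the leukocyte genes, Ptprc, Csf1r, Adgre1 and Cd3e did not pass the filter, Cd68 stood at 6.01 and 5.83 RPKM and was not called, and Cd14 rose from 1.88 to 3.18 RPKM. The part of these differences in the members' values was not tested. In such bulk libraries, more cells of a type and more RNA per cell cannot be told apart.

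The promoters below show the DNA in front of the members with some of the largest differences, the B-type lamins, Kpna2 and Xpo1, beside that of Lmna, which did not pass the test. Each run is the 250 bases before the gene's start in the RefSeq promoter table (build GRCr8), read 5′ to 3′ on the gene's own strand, and capitals mark the word CCAAT, the word TTTGAA and the palindrome CACGTG on either strand. The positions are chr18:52373689-52373938 (plus strand) for Lmnb1, chr7:9443058-9443307 (plus) for Lmnb2, chr2:176258236-176258485 (minus) for Lmna, chr10:92445842-92446091 (minus) for Kpna2 and chr14:101434200-101434449 (plus) for Xpo1.
Lmnb1: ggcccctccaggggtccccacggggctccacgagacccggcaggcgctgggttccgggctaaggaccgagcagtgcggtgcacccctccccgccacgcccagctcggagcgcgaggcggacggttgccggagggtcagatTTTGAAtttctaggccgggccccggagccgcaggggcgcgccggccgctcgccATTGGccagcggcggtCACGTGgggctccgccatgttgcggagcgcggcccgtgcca
Lmnb2: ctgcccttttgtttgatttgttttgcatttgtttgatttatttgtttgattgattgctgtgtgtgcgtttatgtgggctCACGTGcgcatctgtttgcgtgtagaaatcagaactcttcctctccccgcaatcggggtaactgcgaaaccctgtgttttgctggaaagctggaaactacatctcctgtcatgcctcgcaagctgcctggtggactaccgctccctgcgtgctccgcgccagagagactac
Lmna: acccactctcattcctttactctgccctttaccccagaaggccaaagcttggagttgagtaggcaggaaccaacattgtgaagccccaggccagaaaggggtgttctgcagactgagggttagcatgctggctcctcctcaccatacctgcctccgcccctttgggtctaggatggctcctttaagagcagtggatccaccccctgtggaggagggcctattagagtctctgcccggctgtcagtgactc
Kpna2: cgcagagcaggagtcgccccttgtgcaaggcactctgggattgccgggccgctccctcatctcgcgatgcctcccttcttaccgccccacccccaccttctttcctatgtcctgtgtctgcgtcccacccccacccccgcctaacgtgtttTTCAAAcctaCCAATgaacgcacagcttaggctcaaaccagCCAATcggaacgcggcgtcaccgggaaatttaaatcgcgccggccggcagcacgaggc
Xpo1: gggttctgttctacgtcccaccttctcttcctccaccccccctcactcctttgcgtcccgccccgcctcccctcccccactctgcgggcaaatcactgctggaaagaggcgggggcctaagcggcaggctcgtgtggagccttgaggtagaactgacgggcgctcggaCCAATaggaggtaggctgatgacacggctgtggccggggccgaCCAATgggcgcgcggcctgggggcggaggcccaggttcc

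The Lmnb1 run holds ATTGG, the reverse complement of CCAAT, beginning 57 bases before the start, TTTGAA at 110 and CACGTG at 41. Kpna2 holds CCAAT at 89 and 58 bases and TTCAAA, the reverse complement of TTTGAA, at 99. Xpo1 holds CCAAT at 82 and 39, and Lmnb2 holds CACGTG at 171. The Lmna run holds none of the 3 words. Nor do those of Nup160, Nup153, Nup155, Nup205, Nup85, Nup58, Nup62, Kpna4, Kpna6 and Tnpo3, which were called higher. Over tested members with a promoter in that table, CCAAT occurred in 14 of 33 called higher and 4 of 9 not called. TTTGAA occurred in 10 and 1 of these, and CACGTG in 7 and 0. Whether the words go with the differences was not tested.

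The table had an entry for 46 of the 52 members, and 5 motifs were searched in the 250 bases, on both strands. A member with several entries counted once, with a motif if any entry held it, while the other shares count every entry. CCAAT occurred in 20 of these 46 (43.5%), against 34.0% of all 33469 promoters and 35.4% of the 9424 promoters of tested genes. TTTGAA occurred in 12 (26.1%, against 16.2% and 10.5%). CACGTG occurred in 7 (15.2%, against 5.59% and 8.09%): Lmnb1, Lmnb2, Ran, Ranbp2, Ipo7, Nup188 and Nup54. Any of the E2F words TTTCCCGC, TTTGGCGC and TTTCGCGC occurred in 4 (8.70%, against 1.41% and 2.94%), namely Nup155, Nup210, Nup62 and Ranbp1, and GCATGCGC in 3 (6.52%, against 2.20% and 5.03%). Of these 46 members, 42 were tested. Among those 42, CCAAT occurred in 42.9%, TTTGAA in 26.2%, CACGTG in 16.7%, and the E2F words and GCATGCGC in 7.14% each. The E2F words occurred in 3 of 33 called higher and 0 of 9 not called, and GCATGCGC in 2 and 1. No motif contains another, although neighbouring matches may share letters. A match is only a run of letters, and no binding was measured.

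Both B-type lamins rose, and Lmna did not pass the test. Lmnb1, a B-type lamin that stays anchored to the inner nuclear membrane (Rnor_6.0 chromosome 18, 51785111 to 51822264, plus strand), was at 56.1, 55.3 and 50.4 RPKM in the controls and at 87.1, 92.6 and 90.7 with GSK101. The groups did not overlap. It rose 1.67-fold, with means of 53.9 ± 3.09 and 90.1 ± 2.81 RPKM (SD, n = 3). On the log2 scale this was 0.74 (SE 0.05, limma adjusted p = 0.000124), the largest fold change among the 48 tested members.

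Lmnb2, the other B-type lamin (chromosome 7, 11660934 to 11675472, plus strand), was at 24.5, 22.6 and 22.6 RPKM in controls and 36.3, 35.8 and 36.9 with GSK101. The groups were again separate, with a 1.57-fold rise and a log2 fold change of 0.64 (SE 0.05, limma adjusted p = 0.000149). Lmna, which encodes the A-type lamins A and C (chromosome 2, 187842885 to 187863516, minus strand), was at 346, 326 and 301 RPKM in controls and 348, 361 and 334 with GSK101. Its groups overlapped. The means were 324 ± 22.3 and 348 ± 13.5 (SD, n = 3), and the log2 fold change of 0.10 had a 95% interval of -0.03 to 0.24 (limma adjusted p = 0.223).

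Per 100 RPKM of Lmna there were 16.2, 17.0 and 16.7 RPKM of Lmnb1 in controls and 25.1, 25.7 and 27.2 with GSK101. For Lmnb2 the figures were 7.08, 6.93 and 7.50 against 10.5, 9.93 and 11.0. Lmna made up 80.8% ± 0.307 of the summed lamin RPKM in controls and 73.3% ± 0.817 with GSK101 (SD, n = 3), and in each library it was by far the most abundant lamin transcript. A scaling factor applied to a whole library leaves these shares as they are.

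**Figure D2:**
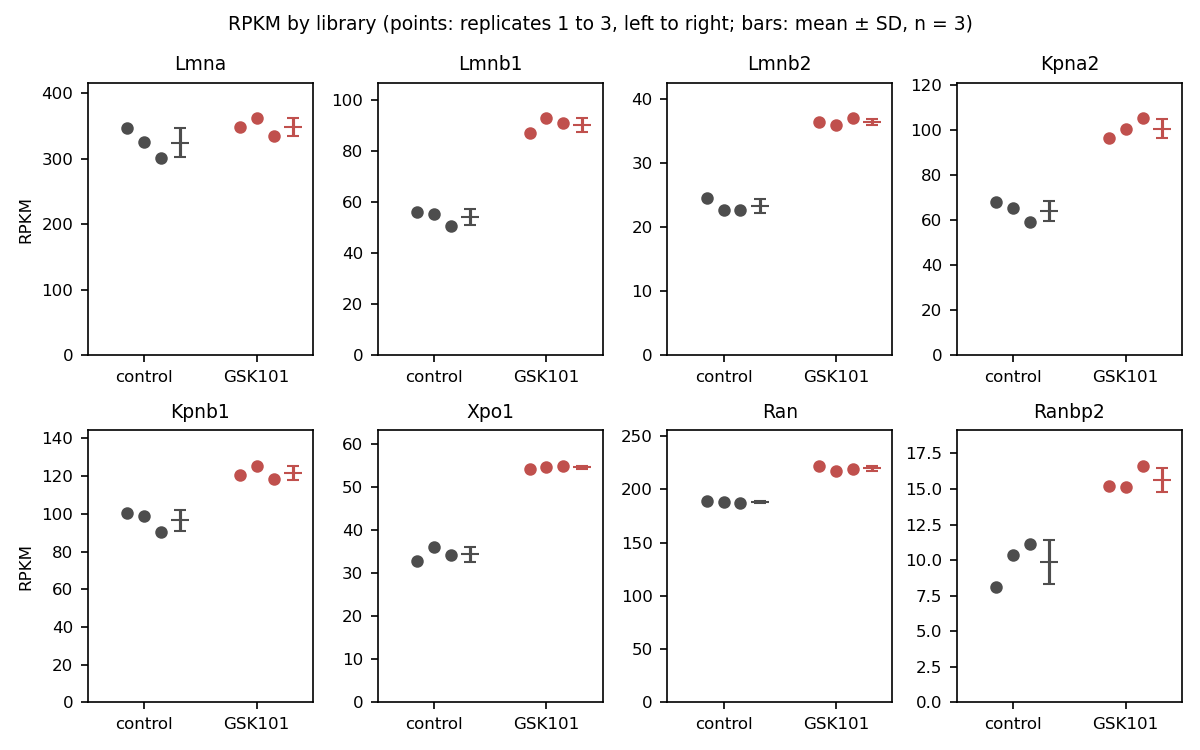
RPKM in each library for Lmna, Lmnb1, Lmnb2, Kpna2, Kpnb1, Xpo1, Ran and Ranbp2, each panel with its own axis from 0; points are replicates and bars the mean ± SD (n = 3 per group). Lmna overlaps between groups, while the other 7 genes have all GSK101 points above all control points.

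The outer ring is the Y-shaped scaffold complex that coats both faces of the pore. All 6 members listed under it here rose, by log2 fold changes of 0.34 to 0.70 (median 0.45). Nup160 (chromosome 3, 79498179 to 79551128, plus strand) belongs to an arm of the complex. It was at 2.13, 2.17 and 2.30 RPKM in controls and 4.10, 3.87 and 3.67 with GSK101. No values overlapped. The 1.77-fold rise was the largest ratio among tested members, with a log2 fold change of 0.70 (SE 0.07, limma adjusted p = 0.000502).

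Nup107, part of the stem of the Y, was at 22.0, 22.3 and 22.7 RPKM in controls and 31.6, 32.1 and 32.4 with GSK101. Both groups were tight and far apart (1.43-fold, log2 fold change 0.51, SE 0.04, limma adjusted p = 0.000176). Nup85, which belongs to the other arm, was at 6.32, 6.15 and 4.98 RPKM in controls and 8.17, 8.58 and 8.83 with GSK101. Control replicate 3 was low, yet the groups stayed apart (log2 fold change 0.52). Nup37, Nup43 and Nup133 rose by 0.39, 0.37 and 0.34 on the log2 scale. Exons of Nup37 overlap Parpbp on the opposite strand, and the use of strand in counting is not stated in the labels or notes. Nup133 missed the threshold without GSK101 replicate 1 (limma adjusted p = 0.0593) and with the gene length trend removed (0.0501), its range over all alternatives being 0.00235 to 0.0593.

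The 5 inner ring genes, whose proteins tie the scaffold to the membrane, rose by log2 fold changes of 0.28 to 0.56 (median 0.40). Nup155, an anchor of this ring, was at 3.47, 3.38 and 3.63 RPKM in controls and 5.38, 5.28 and 5.50 with GSK101. The groups were separate, at a ratio of 1.54 (log2 fold change 0.56, SE 0.06, limma adjusted p = 0.000604). Nup35, a small subunit that binds membrane, had the highest level in the ring, with 7.43, 8.12 and 7.89 RPKM in controls and 11.0, 10.2 and 10.3 with GSK101. It rose by 0.40 on the log2 scale without overlap between groups. The large scaffold genes Nup205 and Nup188, which are related to each other, rose by 0.46 and 0.28. Nup93, a linker of the ring, rose by 0.33 and kept its call in all 17 alternative analyses. Nup188 kept it in 10, with a limma adjusted p of 0.0796 to 0.103 without control replicate 2 or 3 or GSK101 replicate 1 or 2.

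The 3 tested genes of the central channel, whose proteins form part of the permeability barrier, rose by log2 fold changes of 0.17 to 0.28 (median 0.26). Nup62 was at 23.7, 22.6 and 22.2 RPKM in controls and 27.2, 25.4 and 24.9 with GSK101. The lowest GSK101 value lay above the highest control value, at a ratio of 1.13 (log2 fold change 0.17, SE 0.05, limma adjusted p = 0.0331). Nup58 rose by 0.28 (5.27, 4.45 and 5.14 against 6.37, 5.84 and 6.15 RPKM) and Nup54 by 0.26 (6.62, 8.32 and 7.26 against 9.05, 8.53 and 9.13 RPKM). These calls depended on the settings: of 17 alternatives, 9 kept Nup62 past the threshold, 12 kept Nup58 and 6 kept Nup54. The limma adjusted p ranged over these alternatives up to 0.123 for Nup62 (lost without control replicate 2 or 3 or GSK101 replicate 1 or 2), 0.0867 for Nup58 (without control replicate 2 or GSK101 replicate 1 or 3) and 0.125 for Nup54 (without each library but control replicate 2). Exons of Nup58 overlap an unnamed gene model on the same strand. Nup62cl, a relative of Nup62, had 0 to 2 reads in each library and was not tested.

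Nup153, which sits in the basket on the nuclear face, was at 2.76, 2.41 and 2.71 RPKM in controls and 4.26, 3.84 and 3.97 with GSK101. It rose 1.53-fold without overlap (log2 fold change 0.53, SE 0.08, limma adjusted p = 0.00196). Nup98, found on both faces and in the barrier, was at 4.93, 4.49 and 4.82 RPKM in controls and 5.75, 5.78 and 5.82 with GSK101. Its groups were separate as well (log2 fold change 0.26, limma adjusted p = 0.0130). With the gene length trend removed the Nup98 fold change was 0.08 and did not pass (adjusted p = 0.312, range over all alternatives 0.00126 to 0.312).

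On the cytoplasmic face only Ranbp2 of 3 genes passed. Ranbp2 (chromosome 20, 28027054 to 28076664, plus strand), a giant nucleoporin of the cytoplasmic filaments that binds Ran-GTP, was at 8.10, 10.4 and 11.1 RPKM in controls and 15.2, 15.2 and 16.6 with GSK101. Control replicate 1 was the lowest, and all GSK101 values lay above the controls. The ratio was 1.59 and the log2 fold change 0.65 (SE 0.11, limma adjusted p = 0.00347). With the gene length trend removed the Ranbp2 fold change was 0.40 (limma adjusted p = 0.0297). Nup88 and Nup214, partners that hold the export platform there, had log2 fold changes of -0.02 (95% interval -0.17 to 0.13) and 0.07 (-0.14 to 0.28), with overlapping groups. Nup88 stood at 19.0, 21.5 and 18.1 RPKM in controls and 19.3, 19.1 and 19.4 with GSK101, and Nup214 at 2.93, 2.58 and 2.43 against 2.84, 3.01 and 2.56. The sign of Nup88 turned without control replicate 2 (0.051) and after rescaling to TPM (0.019); that of Nup214 turned with quantile normalization (-0.0079) and with the length trend removed (-0.072).

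The membrane nucleoporin Nup210 and its relative Nup210l were close to the detection limit, at no more than 0.0468 and 0.116 RPKM in any library, and were not tested. Nup210 had 1 to 4 reads in controls and 8 to 14 with GSK101. In the fit without a filter its log2 fold change was 0.07 and did not pass (limma adjusted p = 0.236). Counted over all 22 nucleoporin genes, Ranbp2 included, 19 were tested and 17 of these were higher, beside 20.1% of all tested genes.

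**Figure D3:**
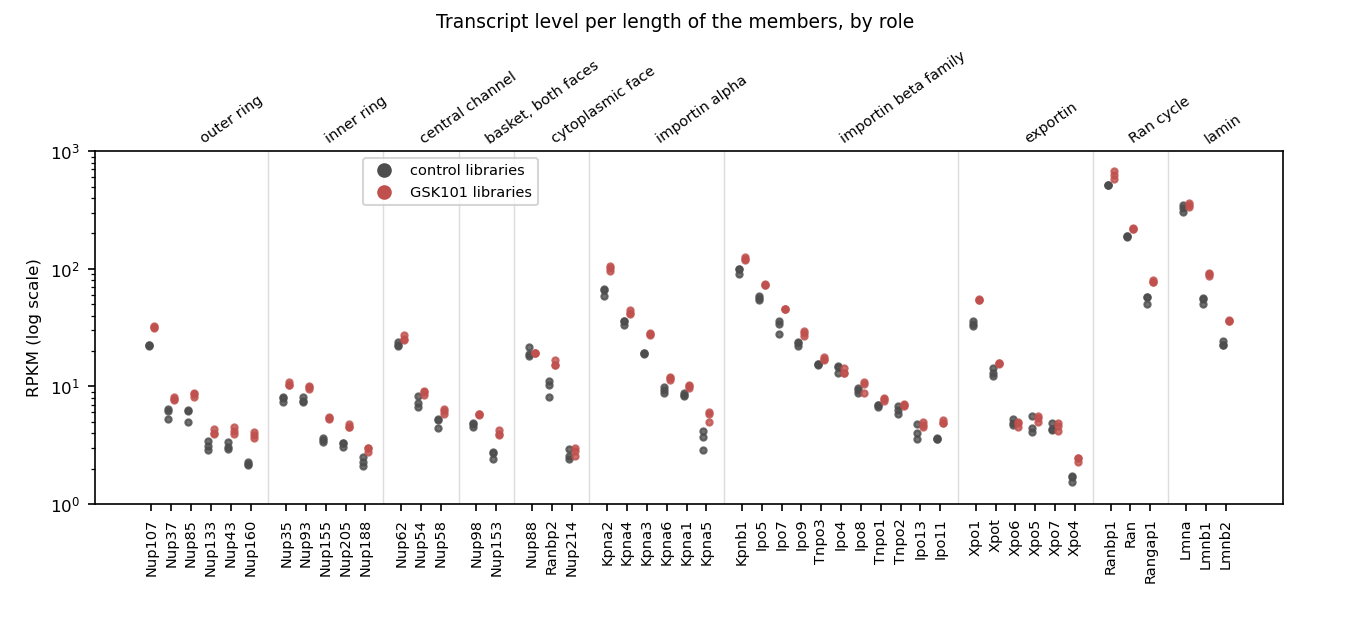
RPKM on a log scale for every tested member in each library, grouped by role; grey points are the 3 control and red points the 3 GSK101 libraries. Control means run from 1.65 RPKM for Xpo4 to 517 RPKM for Ranbp1, and nucleoporin genes lie mostly under 10 RPKM.

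All 6 tested importin alpha genes, whose proteins recognise the classical nuclear localisation signal and link cargo to importin beta, rose by log2 fold changes of 0.22 to 0.65 (median 0.42). Kpna2 (chromosome 10, 95200030 to 95212111, minus strand), the importin alpha typical of proliferating cells, was at 67.9, 65.7 and 59.2 RPKM in controls and 96.4, 100.8 and 105 with GSK101. The groups lay well apart. The ratio was 1.57 and the log2 fold change 0.65 (SE 0.06, limma adjusted p = 0.000345).

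Kpna3 was at 18.9, 19.3 and 19.2 RPKM in controls and 28.0, 27.4 and 28.3 with GSK101, a 1.46-fold rise (log2 fold change 0.54, SE 0.04, limma adjusted p = 0.000158). Kpna4, its close relative, was at 33.2, 36.0 and 35.8 against 45.1, 42.5 and 41.0 RPKM and rose by 0.29. Neither overlapped between groups, and the smaller difference belonged to the more abundant gene of the pair. Kpna5, at 2.90, 3.74 and 4.22 against 6.01, 4.94 and 5.78 RPKM, rose by 0.57 (SE 0.13) with the widest control spread of the 48 tested members, a coefficient of variation of 18.4%. Kpna6 and Kpna1 rose by 0.31 and 0.22, Kpna1 losing the call without GSK101 replicate 1 or 3 (limma adjusted p = 0.0606 and 0.0533) and with the length trend removed (0.256), its range being 0.00388 to 0.256.

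Kpna2 made up 48.1%, 46.3% and 43.3% of the summed importin alpha RPKM in controls and 48.9%, 51.1% and 52.0% with GSK101. Kpna4 held 23.6%, 25.4% and 26.2% against 22.9%, 21.5% and 20.2%. Both sets of shares were separate between the groups, but the nearest values of the groups lay close together. Kpna7, known from oocytes and early embryos, was at 0 in 5 libraries and 0.0294 RPKM in GSK101 replicate 2.

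Of the 11 importin beta family genes 7 rose, and the log2 fold changes ranged from -0.07 to 0.49 (median 0.19). Kpnb1 (chromosome 10, 85093841 to 85124644, minus strand), importin beta itself, which carries importin alpha and its cargo, was at 100.4, 99.0 and 90.3 RPKM in controls and 121, 125 and 118 with GSK101. The groups did not overlap. It rose 1.26-fold (log2 fold change 0.33, SE 0.05, limma adjusted p = 0.00257). With the gene length trend removed the Kpnb1 fold change was 0.19 (limma adjusted p = 0.0247). Kpna2 per 100 RPKM of Kpnb1 went from 67.7, 66.4 and 65.6 to 79.9, 80.3 and 88.9.

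Ipo5, known to import ribosomal proteins and histones, was at 59.1, 56.9 and 54.3 RPKM in controls and 74.2, 72.7 and 72.2 with GSK101 (log2 fold change 0.36, SE 0.04, limma adjusted p = 0.000971). Ipo11 was at 3.59, 3.56 and 3.67 against 4.87, 4.91 and 5.17 RPKM (0.42, limma adjusted p = 0.00190). Both pairs of groups were separate, with little spread inside each. Ipo7, another importer of ribosomal proteins and histones, rose by 0.49 and Ipo9 by 0.28. For Ipo7 the GSK101 libraries were nearly identical at 45.5, 45.6 and 45.7 RPKM, while the controls ran from 27.6 to 36.1.

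The transportins, which carry RNA-binding and splicing proteins, had small fold changes. Tnpo3 was higher by 0.16 and Tnpo1 by 0.17, each with an adjusted p from limma between 0.0281 and 0.0366, and the calls were lost in 9 and 10 of 17 alternatives, Tnpo1 without any 1 of the 6 libraries and Tnpo3 without any but control replicate 1. With the gene length trend removed Tnpo1 turned to -0.043. Exons of Tnpo3 overlap Irf5 on the opposite strand. The 4 genes that did not pass were Ipo13 (0.19, 95% interval -0.04 to 0.42), Tnpo2 (0.13, -0.03 to 0.29), Ipo8 (0.11, -0.08 to 0.30) and Ipo4 (-0.07, -0.23 to 0.08). Ipo13 passed without control replicate 1 (0.29, limma adjusted p = 0.0402, range over all alternatives 0.0402 to 0.513). Ipo4 overlaps Rec8 on the opposite strand.

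The exportins were divided, with 3 of 6 higher. Xpo1 (chromosome 14, 108007724 to 108049660, plus strand), the main exporter of proteins with a leucine-rich export signal and the target of leptomycin B, was at 32.7, 36.1 and 34.2 RPKM in controls and 54.1, 54.5 and 54.9 with GSK101. The distance between the groups was many times the spread inside either. The ratio was 1.59 and the log2 fold change 0.66 (SE 0.05, limma adjusted p = 0.000122), behind only Lmnb1 and Nup160 among tested members. Its share of the summed exportin RPKM was 52.1%, 56.7% and 53.6% in controls and 62.1%, 62.0% and 63.2% with GSK101.

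Xpo4, the exportin of the translation factor eIF5A, was at 1.69, 1.54 and 1.72 against 2.27, 2.47 and 2.45 RPKM (log2 fold change 0.43, limma adjusted p = 0.00552). With the gene length trend removed it was 0.20 and did not pass (adjusted p = 0.0909, range over all alternatives 3.4e-05 to 0.0909). Xpot, the tRNA exportin, rose by 0.24 and lost the call in 5 of 17 alternatives, among them without control replicate 2 or GSK101 replicate 1 or 3 (limma adjusted p = 0.0515, 0.0583 and 0.0503, range over all alternatives 0.00399 to 0.107). Xpo5, the exportin of microRNA precursors, stood at 5.58, 4.12 and 4.44 against 5.41, 5.55 and 5.01 RPKM (0.17, 95% interval -0.07 to 0.41). It passed without control replicate 1 (0.28, limma adjusted p = 0.0334, range over all alternatives 0.0334 to 0.798). Xpo6, the exportin of actin, had a fold change of -0.04 (-0.20 to 0.12) and Xpo7 of 0.02 (-0.17 to 0.20), both with overlapping groups and a sign that changed between alternatives.

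All 3 genes of the Ran cycle rose, by log2 fold changes of 0.22 to 0.52 (median 0.28), and Ranbp1 was the most abundant transcript of all members. Ran (chromosome 12, 31320624 to 31323810, minus strand), the small GTPase, was at 189, 188 and 187 RPKM in controls and 222, 217 and 219 with GSK101. The ratio was only 1.17, but the groups were far apart for their spread (log2 fold change 0.22, SE 0.03, limma adjusted p = 0.00263). Processed copies of Ran are known in mammalian genomes, and the treatment of reads that fit several places is not stated in the labels or notes.

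Rangap1, the activator of GTP hydrolysis on the cytoplasmic side, was at 57.3, 57.1 and 50.4 RPKM in controls and 77.6, 80.6 and 78.0 with GSK101. It rose 1.43-fold without overlap (log2 fold change 0.52, SE 0.06, limma adjusted p = 0.000653). Ranbp1, a helper of that activator, was at 516, 517 and 517 against 632, 581 and 677 RPKM. All GSK101 values were above the controls, though they spread over a wider range than the nearly equal controls (log2 fold change 0.28, SE 0.06, limma adjusted p = 0.00811). Per 100 RPKM of Ran there were 30.3, 30.3 and 27.0 RPKM of Rangap1 in controls and 34.9, 37.1 and 35.6 with GSK101.

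Across the roles the member medians behaved alike in the 3 libraries of a group. Relative to the control mean, the median member stood between -0.0025 and 0.040 in the controls and at 0.36, 0.31 and 0.30 with GSK101 on the log2 scale. For the outer ring the GSK101 medians were 0.47, 0.43 and 0.48, for importin alpha 0.45, 0.37 and 0.45, and for the exportins 0.22, 0.23 and 0.17. Only for the cytoplasmic face did the library medians of the groups overlap. Among the 48 members the median coefficient of variation was 6.04% in controls and 3.70% with GSK101.

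**Figure D4:**
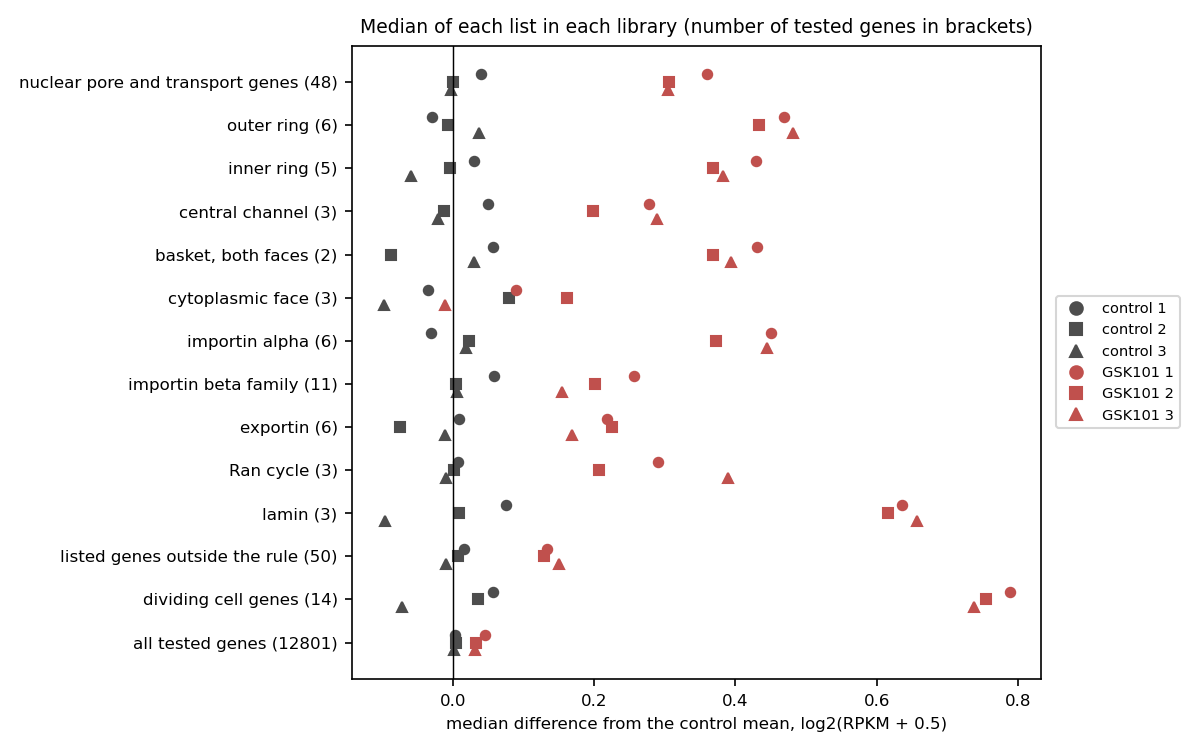
Median difference from the control mean, on the log2(RPKM + 0.5) scale, of each role's tested genes in each library; grey symbols are controls 1 to 3 and red symbols GSK101 replicates 1 to 3. Lamins are farthest right among the roles at 0.62 to 0.66, dividing cell genes lie at 0.74 to 0.79, and all tested genes at 0.03 to 0.05.

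The size of the difference was only weakly related to gene length and level among the members. Spearman's rho with length was -0.16 over the 48 members, whose lengths ran from 1052 to 10277 bases, and 0.18 over all 12801 tested genes. With the mean level it was 0.05. These are descriptions across genes measured in the same 6 libraries. With the length trend of all genes removed, 28 of the 48 members were called higher and 0 lower, beside 14.7% and 16.4% of all tested genes, and the member median was 0.24.

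Genes of the same structures that the symbols do not catch moved in both directions. Of 55 such genes listed, 51 were found and 50 tested: 22 were higher, 3 lower and 25 did not pass, with a median log2 fold change of 0.12. These counts and those of the single lists stand beside 20.1% of all tested genes called higher and 11.9% called lower. In the pore list 5 of 10 rose and 1 fell. Tpr, the main basket protein, was at 31.6, 33.7 and 36.5 against 45.2, 45.5 and 45.4 RPKM and rose by 0.42. Its lowest fold change over all alternatives was 0.22. Ndc1, a membrane anchor of the pore, rose by 0.46, and Gle1, which activates mRNA release on the cytoplasmic side, by 0.36. Ahctf1, which seeds pores on chromatin, rose by 0.37; with the length trend removed it was 0.14 and did not pass (adjusted p = 0.135, range over all alternatives 4.03e-05 to 0.135), and its exons overlap Kif28p on the same strand. Sec13, shared between the outer ring and the COPII coat of secretory vesicles, fell by 0.14, from 205, 202 and 201 to 182, 185 and 184 RPKM, opposite to the 6 outer ring members. Without GSK101 replicate 1 Sec13 did not pass (limma adjusted p = 0.0747, range over all alternatives 0.00677 to 0.0767, the highest after rescaling to TPM).

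Of 9 tested transport genes outside the rule 2 rose (22.2%, near the 20.1% of all tested genes) and 0 fell. Rcc1, the chromatin-bound exchange factor that loads Ran with GTP, was at 5.33, 4.78 and 4.74 against 6.88, 6.75 and 7.94 RPKM and rose by 0.50. Cse1l, the exportin that returns importin alpha to the cytoplasm, was at 17.5, 20.2 and 18.3 against 24.0, 23.9 and 25.5 RPKM and rose by 0.38. Both sets of values were separate between the groups. Nutf2, the importer of Ran, had a fold change of -0.05 (95% interval -0.18 to 0.09).

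For mRNA export 8 of 16 genes rose and 0 fell. Thoc2, the scaffold of the THO complex, was at 8.33, 9.63 and 10.3 against 13.9, 15.5 and 16.0 RPKM and rose 1.60-fold (0.66 on the log2 scale). Nxf1 and Nxt1, the subunits of the export receptor, rose by 0.35 and 0.29, and the RNA helicase Ddx39a by 0.35.

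The nuclear envelope list split, with 7 of 15 higher and 2 lower. Lbr, the receptor of B-type lamin, was at 2.91, 2.97 and 2.99 against 4.60, 4.73 and 4.66 RPKM, a 1.58-fold rise (0.58). Tmpo, which encodes LAP2, was at 19.5, 19.8 and 18.8 against 28.7, 29.3 and 26.9 RPKM and rose by 0.53. Syne1, which links the nucleus to the cytoskeleton, rose by 0.46, with a lowest fold change of 0.21 over all alternatives. Emd, which encodes emerin, a partner of lamin A, fell by 0.37, from 15.3, 15.5 and 14.7 to 11.7, 11.0 and 12.2 RPKM. Lemd2, another protein of the emerin domain family, fell by 0.29, from 9.02, 9.16 and 7.94 to 6.87, 7.17 and 7.06 RPKM. None of these values overlapped between groups. Without GSK101 replicate 1 Lemd2 did not pass (limma adjusted p = 0.0517, range over all alternatives 0.00551 to 0.0517).

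**Figure D5:**
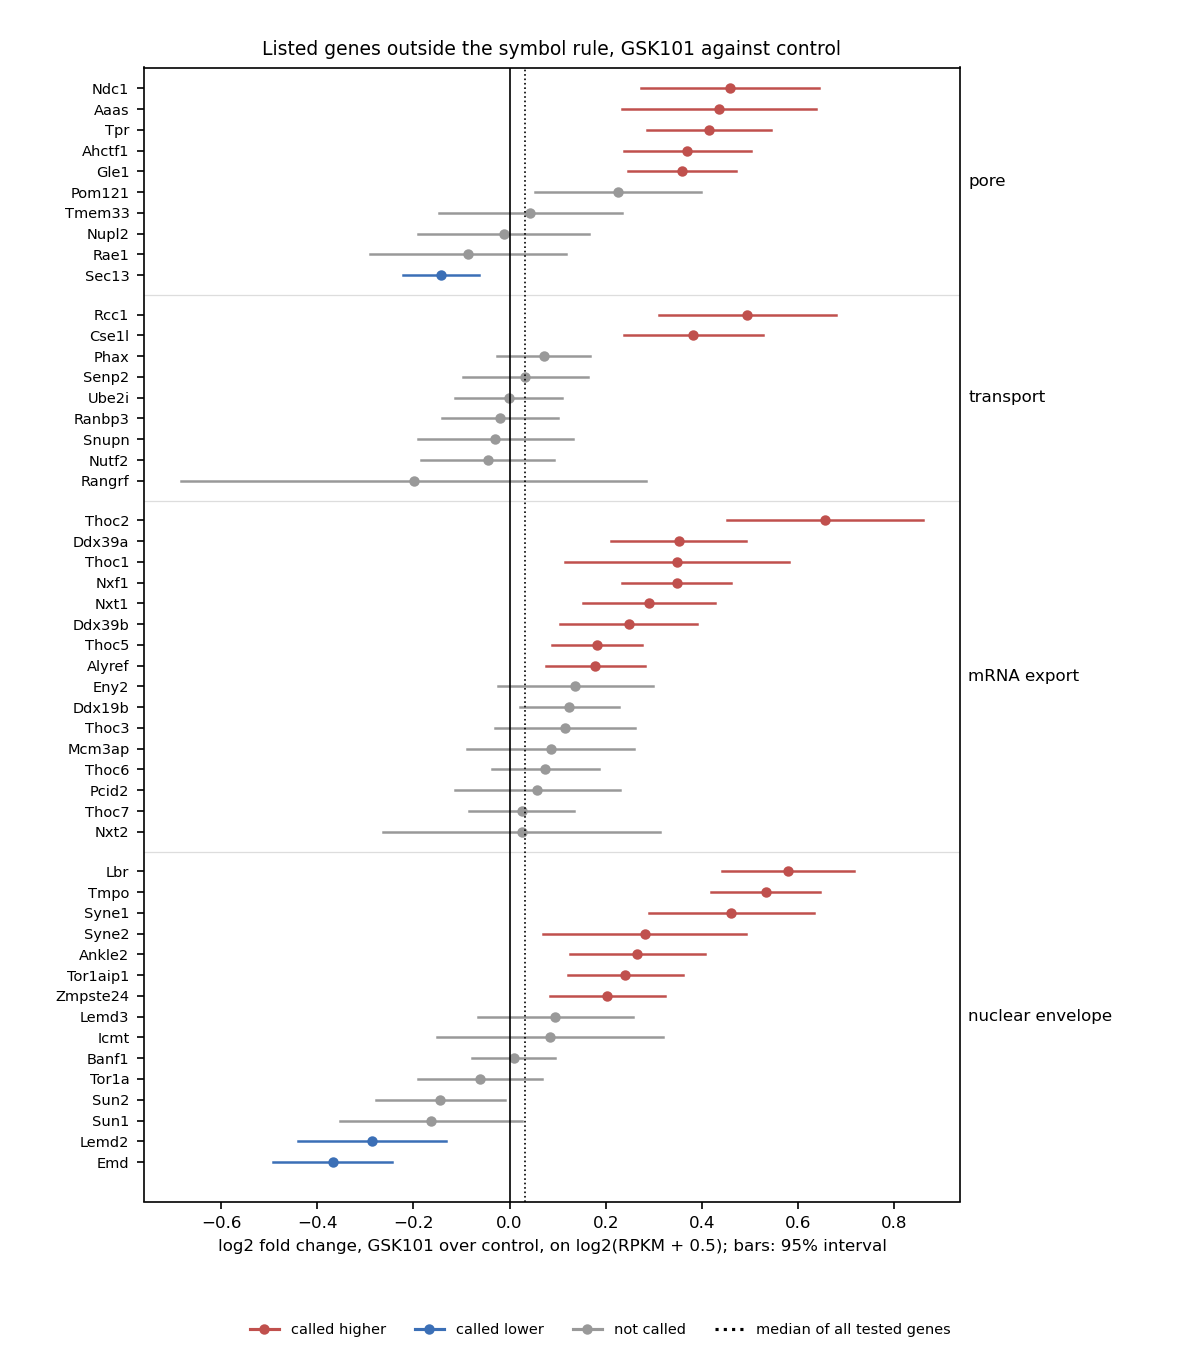
Log2 fold change, GSK101 over control on the log2(RPKM + 0.5) scale, with 95% intervals from limma (n = 3 per group), of the 50 tested genes of the pore, transport, mRNA export and nuclear envelope outside the symbol rule. Red points were called higher (22), blue points lower (3: Emd, Lemd2 and Sec13) and grey points not called (25).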

How the data were processed

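Polyadenylated RNA of 6 samples was sequenced as stranded, paired-end libraries with molecular identifiers, per the labels' protocols. The authors deposited RPKM values for 20675 genes; the build Rnor_6.0 and the tools edgeR 3.12.1, STAR 2.5.3a, Trimmomatic 0.36, Subread 1.5.1 and featureCounts are listed in the submitters' processing notes. How counting used identifiers, strand and multiply placed reads is not stated in the labels or notes; strand and duplicates can both change a gene's value. RPKM times length gave whole reads (within 0.01) for 100% of values, in total 43061102 to 45705238 per library; 71.3% to 74.7% of genes with 1 to 10 reads had an even count, so mates may have been counted separately.

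limma 3.58.1 (R 4.3.3) was run on log2(RPKM + 0.5) with a group term and a mean-variance trend, over 12801 genes with RPKM of at least 0.5 in at least 3 libraries. Benjamini-Hochberg adjusted p-values under 0.05 were called, and all adjusted p-values are two-sided. The fit was tested on simulated data with as many genes raised as lowered and no gene length trend. That test cannot speak to the scaling. Alternatives were other pseudocounts (0.1 and 1), filters (none, RPKM of at least 1), TPM, median-ratio and quantile scaling, removal of the gene length trend (loess, span 0.3), no trend, limma-voom, a replicate block and leaving out each library.

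Every member could be named. Values in every library were given for up to 3 members per role with the smallest adjusted p, the most abundant member, and 8 genes named in the plan, and some further members were chosen after their values were seen. Of the genes outside the rule, up to 4 per list with the smallest adjusted p were named; Sec13, Lemd2 and Nutf2 were added after their values were seen. Members and lists were chosen with earlier results of these data known. Promoters and their coordinates are from RefSeq, build GRCr8; gene coordinates are those of the deposited file, Rnor_6.0. For 1 gene of the lists outside the rule, values are not reported here, and it enters no list count.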

Additional observations from a re-analysis of the deposited data

How the results depend on the processing

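Of the 38 members called higher, 27 kept the call in all 17 alternatives; the 11 that lost it in at least 1 were Kpna1, Nup133, Nup188, Nup54, Nup58, Nup62, Nup98, Tnpo1, Tnpo3, Xpo4 and Xpot. The number called higher was 28 with the gene length trend removed, 31 with quantile normalization, 34 with median-ratio scaling and 29 to 38 when libraries were left out 1 at a time; 0 were lower in each of these. Over all genes, 2570 were higher and 1518 lower, against 1983 and 2141 with quantile normalization, 1885 and 2101 with the length trend removed, 2165 and 1947 with median-ratio scaling and 2936 and 1117 after TPM rescaling, so scaling moves the balance of calls. Genes outside the rule called lower numbered 5 with the gene length trend removed, beside 16.4% of all tested genes. They numbered 4 with median-ratio scaling (beside 15.2%) and 4 with quantile normalization (beside 16.7%). When libraries were left out they numbered 1 to 3 (beside 8.24% to 10.1%), the lowest without GSK101 replicate 1. Signs turned for Nup214 (-0.0079 with quantile normalization, -0.072 with the length trend removed), Nup88 (0.019 after TPM rescaling), Tnpo1 (-0.043 with the length trend removed) and Xpo7 (-0.018 with median-ratio scaling, -0.060 with quantile normalization, -0.11 with the length trend removed). When libraries were left out, Nup88 ranged from -0.070 to 0.051 (positive without control replicate 2), Xpo6 from -0.078 to 0.0050 (positive without control replicate 1) and Xpo7 from -0.032 to 0.072 (negative without control replicate 3 or GSK101 replicate 2). The cause was not tested. Samples share only a replicate number: same-numbered samples had correlations of 0.05, -0.06 and 0.05 in their deviations from the group means. With the replicate block 35 members were higher and 0 lower, beside 19.6% and 11.2% of all tested genes. Members under 0.5 RPKM had too few reads at this depth for a dependable comparison. The 4 untested members entered only the fit without a filter, and none passed there.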
